A study of Rattus norvegicus with 12 samples.

Results

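Calcium signalling downstream of Gq-coupled receptors was examined in cultured rat retinal ganglion cells (RGCs) exposed to endothelins, through 82 genes of this pathway out of 14217 genes named on the array. The genes were chosen by symbol: those beginning with Plcb, Plcg, Plcd, Itpr followed by a digit, Ryr, Prkc, Camk, Calm followed by a digit, Ppp3, Rcan, Cacn, Atp2a or Atp2b, together with Gnaq, Gna11, Stim1 and Orai1. Each gene was represented by its probe set of highest mean log2 signal over the 12 arrays, out of 137 probe sets carrying these symbols. A choice by prefix also brings in genes of other roles. Prkcsh encodes the beta subunit of glucosidase II, Camkmt a calmodulin methyltransferase, Camk2n1 an inhibitor protein of CaM kinase II, and Cacng2 and Cacng3 are auxiliary subunits of AMPA receptors. Only Calm2 stood for the calmodulin genes.

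The RGCs were primary cells taken by Thy-1.1 antibody panning from the retinas of Sprague-Dawley pups of postnatal days 4 to 6. All groups were cultured for 7 days in DMEM without serum, supplemented with forskolin, brain-derived neurotrophic factor and also ciliary neurotrophic factor, and were then kept overnight without the neurotrophic factors. The ET-1, ET-2 and ET-3 groups then received that peptide at 100 nM for 24 h, and the control group, called untreated here as in the sample titles, is described elsewhere in the labels as vehicle-treated. Each of the 4 groups had 3 arrays, numbered as biological replicates 1 to 3, and whether a number marks a shared cell preparation is not stated. The values are MAS5 signals, the Affymetrix brightness summary of a probe set on a linear scale.

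Endothelins are small peptides that act on the receptors ETA and ETB. ET-1 and ET-2 bind both receptors, whereas ET-3 prefers ETB. Coupled to Gq or G11, these receptors activate phospholipase C beta, which cleaves a membrane phosphoinositide into inositol trisphosphate (IP3) and diacylglycerol. IP3 opens calcium channels of the endoplasmic reticulum, diacylglycerol and calcium activate protein kinase C, and calcium-bound calmodulin activates CaM kinases and the phosphatase calcineurin until pumps return calcium to the store or out of the cell. The array reports transcript abundance only. The receptor genes Ednra and Ednrb were not analysed here.

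The cultures carried RGC transcripts on every array. The summed signal of 13 measured RGC markers ran from 89463 to 138798 on the 9 endothelin arrays and from 89055 to 125892 on the untreated arrays, whereas that of 8 photoreceptor markers stayed at or below 255.7 on all 12 arrays. Other cell types were also represented, and some of their markers moved with the endothelins. The sum of 9 pericyte and smooth muscle markers ran from 7509 to 10970 with endothelin, against 4070 to 6855 in untreated cultures, and 4 of the 5 tested passed as higher in the mean of the 3 endothelins (Pdgfrb, Acta2, Tagln and Cnn1). The sum of 10 astrocyte and Mueller glia markers ran from 20651 to 32064 with endothelin, against 16331 to 22599 untreated. Among the 5 tested, Gja1, Vim and Clu were higher in the mean. Slc1a3, at a log2 change of 0.08, and Glul, at -0.02, were not called (limma adjusted p = 0.787 and 0.93). The sum of 8 fibroblast markers split by replicate number instead, at 51074 to 56720 on the 4 arrays of replicate 1 in all groups and 7384 to 11704 on the other arrays. Of these 8 fibroblast markers, all tested, Col3a1, Ogn and Islr fell in the mean of the 3 endothelins. The others were not called, with log2 changes of 0.02 for Col1a1, 0.12 for Col1a2, 0.10 for Pdgfra, -0.27 for Dcn and -0.09 for Lum. Of 13 tested RGC markers only Eomes fell in that comparison. The sum of 8 endothelial markers ran from 589.3 to 1290 with endothelin, against 988.9 to 1230 untreated. Among the 3 tested, Kdr fell (log2 change -0.58 in the mean, limma adjusted p = 0.0304). Plvap, at -0.55, and Esam, with the opposite sign at 0.46, were not called (limma adjusted p = 0.194 and 0.304). In such a culture, fewer cells of a type and less RNA per cell cannot be told apart, and the part of these markers in the results that follow was not tested.

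Of the 82 genes, 50 passed the filter on low signal and were tested, the filter keeping the brighter part of the array by mean log2 signal, from a signal of about 147.5 upwards. The other 32 were not tested, and 22 of them lay under that signal on every array. Differences were tested with limma on log2 signals, with the replicate number as a block, and p-values were adjusted by the Benjamini-Hochberg method over all 15521 probe sets that passed the filter. A gene was called changed at an adjusted p under 0.05.

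Transcripts of 2 calcium signalling genes fell after endothelin. Plcg1, which encodes phospholipase C gamma 1, the isoform activated by receptor tyrosine kinases rather than by Gq, fell with ET-1 and ET-2 and in the mean of the 3 peptides. Rcan2, which encodes a regulator that binds and inhibits calcineurin, fell in the mean of the 3 peptides. The tested genes from G alpha protein to IP3 receptor (Gna11, the tested Plcb genes and Itpr1) had no call. Nor had the store-operated entry genes, the CaM kinases, the protein kinase C genes or the pumps. No member rose, where 1.51% of all tested probe sets rose with ET-1, 1.28% with ET-2, 2.13% with ET-3 and 3.54% in the mean, so a count of 0 in 50 lies near the share of the whole array. With ET-1, 1 of 50 genes fell, where 0.219% of all tested probe sets fell. With ET-2, 1 of 50 fell, where 0.322% of all tested probe sets fell. With ET-3, 0 of 50 fell, where 0.509% of all tested probe sets fell. In the mean of the 3 endothelins, 2 of 50 fell, where 1.35% of all tested probe sets fell. At an unadjusted p under 0.05 (limma), 7 genes were lower and 0 higher with ET-1, where 7.7% and 7.76% of all tested probe sets were. With ET-2, 8 were lower and 1 higher, where 8.7% and 7.65% were. With ET-3, 10 were lower and 1 higher, where 9.21% and 8.58% were. In the mean, 13 were lower and 2 higher, where 11.9% and 9.91% were. As shares of the 50 genes, 14%, 16%, 20% and 26% were lower with ET-1, ET-2, ET-3 and in the mean. The shares higher were 0%, 2%, 2% and 4%. The counts are small, and whether these shares differ from those of the whole array was not tested.

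The upstream sequences of both genes that fell, and of Rcan1, are shown because the pathway ends in transcription factors with known DNA motifs: NFAT, activated by calcineurin, and CREB, phosphorylated by CaM kinases. Rcan1 is itself a known target of calcineurin and NFAT. The 250 bases before 1 RefSeq start of each gene, the first listed, are given on the gene's strand (build GRCr8), for Plcg1 at chr3:169805049-169805298 (plus strand), Rcan2 at chr9:24672190-24672439 (minus strand) and Rcan1 at chr11:45118237-45118486 (minus strand). Any other starts were not examined, so the Rcan1 window need not be the promoter that answers to NFAT. Capitals mark GGAAA or TTTCC, the core of NFAT sites, and TGACG or CGTCA, the core of cyclic AMP response elements (CRE), on either strand.
Plcg1: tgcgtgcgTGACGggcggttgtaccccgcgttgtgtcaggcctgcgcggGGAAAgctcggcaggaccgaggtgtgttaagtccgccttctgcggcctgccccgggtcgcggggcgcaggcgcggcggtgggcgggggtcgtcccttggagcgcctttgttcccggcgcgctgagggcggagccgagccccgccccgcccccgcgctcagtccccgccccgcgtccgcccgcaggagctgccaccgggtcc
Rcan2: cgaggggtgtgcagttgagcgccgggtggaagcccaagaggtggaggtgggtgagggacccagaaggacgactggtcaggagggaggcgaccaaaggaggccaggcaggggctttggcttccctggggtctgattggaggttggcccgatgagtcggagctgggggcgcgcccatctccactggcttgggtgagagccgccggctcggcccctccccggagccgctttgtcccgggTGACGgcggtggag
Rcan1: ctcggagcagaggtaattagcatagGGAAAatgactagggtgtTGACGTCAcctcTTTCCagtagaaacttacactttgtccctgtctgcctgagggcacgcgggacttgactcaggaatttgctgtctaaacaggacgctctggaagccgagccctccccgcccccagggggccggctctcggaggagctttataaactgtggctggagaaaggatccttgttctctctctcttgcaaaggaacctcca
The Plcg1 window held 1 GGAAA core and 1 TGACG CRE core, the Rcan2 window 0 GGAAA and 1 TGACG, and the Rcan1 window 2 GGAAA and 2 TGACG that overlap in TGACGTCA. The GC box GGGCGG, read on both strands and not capitalised, occurred 7 times before Plcg1, 0 times before Rcan2 and 1 time before Rcan1. Over 33469 RefSeq windows of the same length, 56.9% held a GGAAA core, 18.2% a TGACG core and 30.5% a GC box. A match describes the letters of the window only.

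Plcg1 signals were 1189, 1293 and 951.3 with ET-1 in replicates 1 to 3, then 1146, 1209 and 960.5 with ET-2 and 1220, 1402 and 1125 with ET-3, against 1532, 1631 and 1203 in untreated cultures. Within every replicate number, each endothelin array was below its untreated array, although the groups overlap when the number is ignored, because the untreated array of replicate 3 lies below several endothelin arrays of replicates 1 and 2. The log2 change was -0.35 ± 0.07 with ET-1 (SE, n = 3 each; limma adjusted p = 0.018), -0.39 ± 0.07 with ET-2 (limma adjusted p = 0.0134) and -0.32 ± 0.05 in the mean of the 3 peptides (limma adjusted p = 0.00496), the last being 0.803 of the untreated level. With ET-3 it was -0.21 ± 0.07, which did not pass (limma adjusted p = 0.104). Plcg1 has a single probe set, so no other probe set bears on it. The call in the mean was lost without replicate 1 (limma adjusted p = 0.0711) and without replicate 2 (limma adjusted p = 0.0921), and all calls were lost without the replicate block (limma adjusted p = 1). Of 15 fits with arrays left out, the ET-1 call was lost in 8 (without any ET-1 array, the untreated array of replicate 1 or 2, or any replicate number) and the ET-2 call in 6 (without any ET-2 array or any replicate number).

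**Figure D1:**
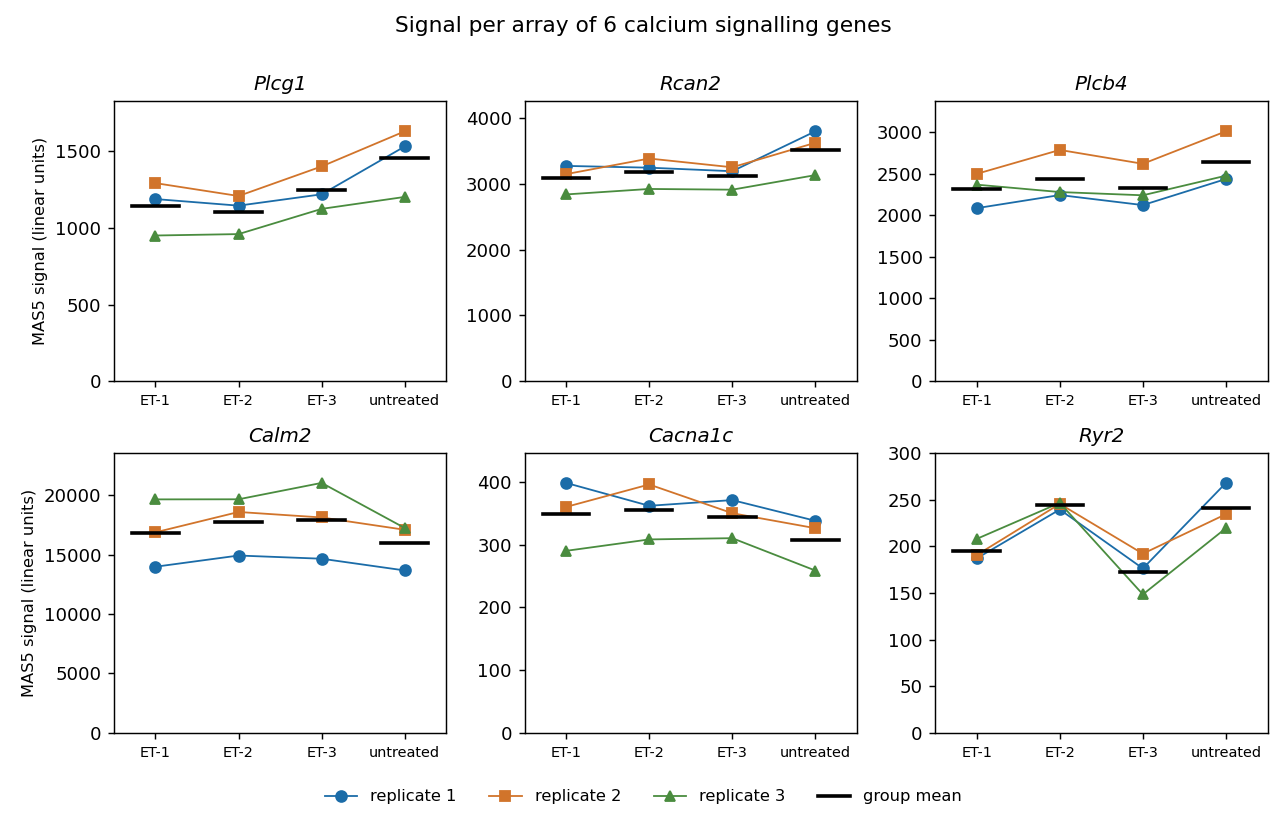
MAS5 signal (linear units) on each array for 6 genes; coloured lines join the arrays of 1 replicate number across ET-1, ET-2, ET-3 and untreated cultures, and black bars are group means. Plcg1 and Rcan2 lie lower on each endothelin array than on the untreated array of the same number, Cacna1c lies higher, and Ryr2 is lowest with ET-3.

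Rcan2 signals were 3270, 3145 and 2837 with ET-1, 3243, 3382 and 2920 with ET-2 and 3189, 3249 and 2909 with ET-3, against 3795, 3621 and 3130 untreated. Again each endothelin array was below the untreated array of its number in 9 of 9 differences, and the untreated array of replicate 3 overlapped the endothelin range. The log2 change was -0.17 ± 0.04 in the mean of the 3 peptides (limma adjusted p = 0.0372), and -0.19, -0.14 and -0.17 with ET-1, ET-2 and ET-3, none of which passed (limma adjusted p = 0.0894, 0.186 and 0.0935). A second Rcan2 probe set gave -0.20 ± 0.06 (limma adjusted p = 0.091). The call lies close to the threshold: it was lost in 12 of 15 fits with arrays left out (all but those without ET-2 replicate 2, ET-3 replicate 3 or untreated replicate 3), at -0.13 without the untreated array of replicate 1 (limma adjusted p = 0.187), and without the filter, with quantile normalization, without the intensity trend and without the replicate block (limma adjusted p = 0.0658, 0.0636, 0.121 and 1).

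Of the G alpha genes that couple the receptors to phospholipase C, Gna11 was tested and Gnaq was not. Gna11 measured 214 to 276.3 with ET-1, 235.3 to 279.1 with ET-2 and 240.7 to 288.2 with ET-3, against 217.5 to 326.8 untreated, and its log2 change was -0.03 ± 0.12 in the mean of the 3 peptides (limma adjusted p = 0.903), turning to 0.15 without the untreated array of replicate 3. Gnaq split by replicate number: in replicate 3 its signal was 436.6 with ET-1, 426.4 with ET-2 and 383.9 with ET-3, against 302.5 untreated, while replicates 1 and 2 ran from 47.65 to 85.83 with endothelin and from 83.6 to 90.69 untreated. The replicate number held 95.2% of the variation of Gnaq in log2 signal.

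Among the phospholipases C, 6 of 9 genes were tested, with a median log2 change of -0.12 in the mean of the 3 peptides. The beta isoforms are the direct effectors of Gq. Plcb4 measured 2084, 2497 and 2367 with ET-1, 2242, 2785 and 2278 with ET-2 and 2121, 2618 and 2239 with ET-3, against 2435, 3009 and 2475 untreated, so that each endothelin array was below its untreated partner. Its log2 change of -0.16 ± 0.05 in the mean did not pass (limma adjusted p = 0.0627), though it did without the ET-1 array of replicate 3 (-0.18, limma adjusted p = 0.0436). Plcb1 measured 2092, 1900 and 973.6 with ET-1, 1959, 1802 and 990.6 with ET-2 and 2001, 1688 and 1068 with ET-3, against 2335, 2087 and 1060 untreated (log2 change -0.17 ± 0.06, limma adjusted p = 0.11). Replicate 3 was the low one for Plcb1 in every group, and there ET-3 lay just above the untreated array. Plcb3 had a log2 change of 0.05 ± 0.17 in the mean (limma adjusted p = 0.897), and median centring (-0.01), quantile normalization (-0.04) and leaving out the untreated array of replicate 1 (-0.03) or replicate 2 (-0.19) turned it negative, while without that of replicate 3 it was 0.37 (limma adjusted p = 0.127). Of the delta isoforms, Plcd1 and Plcd3 had mean changes of -0.08 and 0.00, and Plcb2, Plcd4 and Plcg2 were under the filter.

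The release channels of the endoplasmic reticulum comprise the IP3 receptors and the ryanodine receptors, and 3 of 6 were tested. Itpr1, the main IP3 receptor of neurons, measured 474.1, 335.1 and 270.2 with ET-1, 453.9, 296.1 and 219.8 with ET-2 and 447, 363.9 and 320 with ET-3, against 512.5, 259.5 and 303.9 untreated, with a log2 change of 0.00 ± 0.12 in the mean (limma adjusted p = 1). Itpr2 measured 73.15 to 150.6 with endothelin, against 52.2 to 73.53 untreated, and Itpr3 measured 89.83 to 135.3 with endothelin, against 53.96 to 103.5 untreated. The second Itpr2 probe set overlapped, at 47.04 to 174.7 with endothelin, against 69.22 to 92.37 untreated, and was below its untreated partner on 4 arrays. Both IP3 receptors were too dim for the test. Fitted without the filter, their mean log2 changes of 0.56 ± 0.22 and 0.51 ± 0.20 did not pass (limma adjusted p = 0.253 and 0.248).

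Ryr2, a ryanodine receptor that releases calcium in response to calcium, was the member most divided by treatment. It measured 187, 190.6 and 207.9 with ET-1, 239.4, 245.4 and 246.5 with ET-2 and 176.2, 192 and 148.4 with ET-3, against 267.9, 234.4 and 219.4 untreated. The ET-1 and ET-3 arrays all lay below the untreated arrays, and the ET-2 arrays lay within the untreated range. The log2 change was -0.49 ± 0.14 with ET-3 (limma adjusted p = 0.0883), -0.30 ± 0.14 with ET-1 (limma adjusted p = 0.33) and 0.02 ± 0.14 with ET-2 (limma adjusted p = 0.957). Treatment groups held 80.8% of the variation of Ryr2 and replicate numbers 2.84%. Its level is not far above the filter. Ryr3, a further ryanodine receptor, had changes of -0.26, -0.04 and -0.36 with ET-1, ET-2 and ET-3 and did not pass (limma adjusted p = 0.45, 0.922 and 0.251).

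Of the store-operated entry pair, Stim1 senses calcium in the store and Orai1 forms the channel pore of the plasma membrane. Stim1 ran from 503.8 to 818 with endothelin, against 550.4 to 767 untreated, and Orai1 ran from 292.2 to 543.8 with endothelin, against 355.8 to 468.7 untreated. The groups overlapped for both genes, and their mean log2 changes were -0.06 ± 0.08 and 0.08 ± 0.10 (limma adjusted p = 0.729 and 0.705).

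The Cacn prefix, which covers the subunits of voltage-gated calcium channels, gave the most members, with 24 genes. Of these 10 were tested and 7 had a negative estimate in the mean of the 3 peptides, both counts including the AMPA receptor auxiliary genes Cacng2 and Cacng3. Cacna1b, the pore of N-type channels, measured 1276, 1654 and 1242 with ET-1, 1266, 1664 and 1310 with ET-2 and 1169, 1615 and 1317 with ET-3, against 1525, 1843 and 1335 untreated (log2 change -0.17 ± 0.06, limma adjusted p = 0.104). Cacna2d1, an alpha-2-delta subunit that raises channel density at the membrane, measured 1545 to 2073 with endothelin, against 1894 to 2145 untreated (log2 change -0.18 ± 0.07, limma adjusted p = 0.131). For both genes all 9 within-replicate differences were negative at the chosen probe set. A second Cacna1b probe set gave -0.09 in the mean (limma adjusted p = 0.728). It lay above its untreated partner with ET-1 in replicate 3 and with ET-2 in replicates 2 and 3. Cacng2 had a change of -0.25 ± 0.09 (limma adjusted p = 0.135), which was -0.14 without the untreated array of replicate 2 (limma adjusted p = 0.474) and -0.39 without that of replicate 3 (limma adjusted p = 0.027). Cacna1c, the pore of an L-type channel, was singled out after its values were seen, because its 9 differences were all positive: it measured 398.5, 360.2 and 290.2 with ET-1, 362, 396 and 308.4 with ET-2 and 371.1, 350.2 and 310.4 with ET-3, against 338.1, 326.3 and 258.8 untreated. Its log2 change of 0.19 ± 0.09 did not pass (limma adjusted p = 0.227).

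Among genes with the Calm and Camk prefixes, Camkmt, Camkv and Camk2n1 included, 11 of 14 were tested and 9 had negative estimates in the mean. Calm2, the calcium sensor itself, measured 13985, 16882 and 19653 with ET-1, 14928, 18593 and 19661 with ET-2 and 14659, 18131 and 21040 with ET-3, against 13672, 17095 and 17245 untreated, and 8 of 9 differences were positive. Its log2 change of 0.12 ± 0.04 did not pass (limma adjusted p = 0.103) and became -0.01 after quantile normalization. Camk1, which the CaM kinase kinases activate, had a change of -0.15 ± 0.07 (limma adjusted p = 0.229). Camk2b, a neuronal CaM kinase II subunit, had a change of -0.10 ± 0.05 (limma adjusted p = 0.234), and a second probe set gave -0.16 ± 0.08. Camk2n1 had -0.07 at its chosen probe set and 0.20 at another, neither of them called.

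Of 10 genes with the Prkc prefix 6 were tested, Prkcsh of glucosidase II among them, and 3 (Prkci, Prkcb and Prkce) had negative estimates in the mean. Prkcsh had 0.03 ± 0.06 (limma adjusted p = 0.822). Prkci, an atypical isoform that needs neither calcium nor diacylglycerol, measured 2467 to 2695 with ET-1, 2356 to 2480 with ET-2 and 2268 to 2757 with ET-3, against 2704 to 3035 untreated. Its log2 change of -0.16 ± 0.06 did not pass (limma adjusted p = 0.128). Prkcb, a conventional isoform activated by both messengers, had -0.06 ± 0.06 (limma adjusted p = 0.56). A second Prkcb probe set gave -0.21 ± 0.12 in the mean and -0.40 ± 0.15 with ET-3, neither of them called (limma adjusted p = 0.342 and 0.187). Prkce, a calcium-independent isoform that responds to diacylglycerol, had -0.13 ± 0.11 (limma adjusted p = 0.525), and 0.05 without the untreated array of replicate 2. Prkca, the conventional isoform that marks rod bipolar cells in the retina, was under the filter at 76.81 to 121.5 with endothelin, against 59.57 to 91.69 untreated.

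Calcineurin is built of a catalytic subunit (Ppp3ca, Ppp3cb or Ppp3cc) and a calcium-binding subunit (Ppp3r1 or Ppp3r2). After Rcan2, the smallest unadjusted p-values in the mean belonged to Ppp3cb, with a log2 change of -0.14 ± 0.06, and Ppp3cc, with -0.23 ± 0.12 (limma adjusted p = 0.171 and 0.291). The Ppp3cc value was -0.04 without the untreated array of replicate 2 and -0.34 without that of replicate 3. Another Ppp3cb probe set gave -0.12 ± 0.07 and a further one -0.01 ± 0.06. Rcan1 measured 1227, 899.8 and 1025 with ET-1, 1066, 798 and 1029 with ET-2 and 1099, 943 and 1078 with ET-3, against 1145, 870.4 and 1120 untreated. The groups overlapped, and its log2 change was -0.04 ± 0.06 (limma adjusted p = 0.765), with a 95% interval within 1.5-fold.

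All 4 tested calcium pumps had negative estimates with each peptide, and none was called. Atp2a2 encodes SERCA2, which refills the endoplasmic reticulum, and the Atp2b genes encode pumps of the plasma membrane. Atp2b1 measured 3709, 2938 and 2801 with ET-1, 3488, 3288 and 2709 with ET-2 and 3672, 3297 and 2808 with ET-3, against 3752, 3715 and 2922 untreated, and each of its 9 differences was negative (log2 change -0.12 ± 0.05, limma adjusted p = 0.193). Another Atp2b1 probe set gave -0.09 ± 0.08 and a further one -0.11 ± 0.05 (limma adjusted p = 0.532 and 0.232). The former lay above its untreated partner with ET-1 and ET-2 in replicate 1 and with ET-3 in replicate 3. Atp2b2 had -0.08 ± 0.05 (limma adjusted p = 0.386). Atp2a2 had -0.09 ± 0.05 (limma adjusted p = 0.318), but other probe sets of that gene gave 0.25 ± 0.09 (limma adjusted p = 0.113) and 0.13 ± 0.16, so its direction depends on the probe set.

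**Figure D2:**
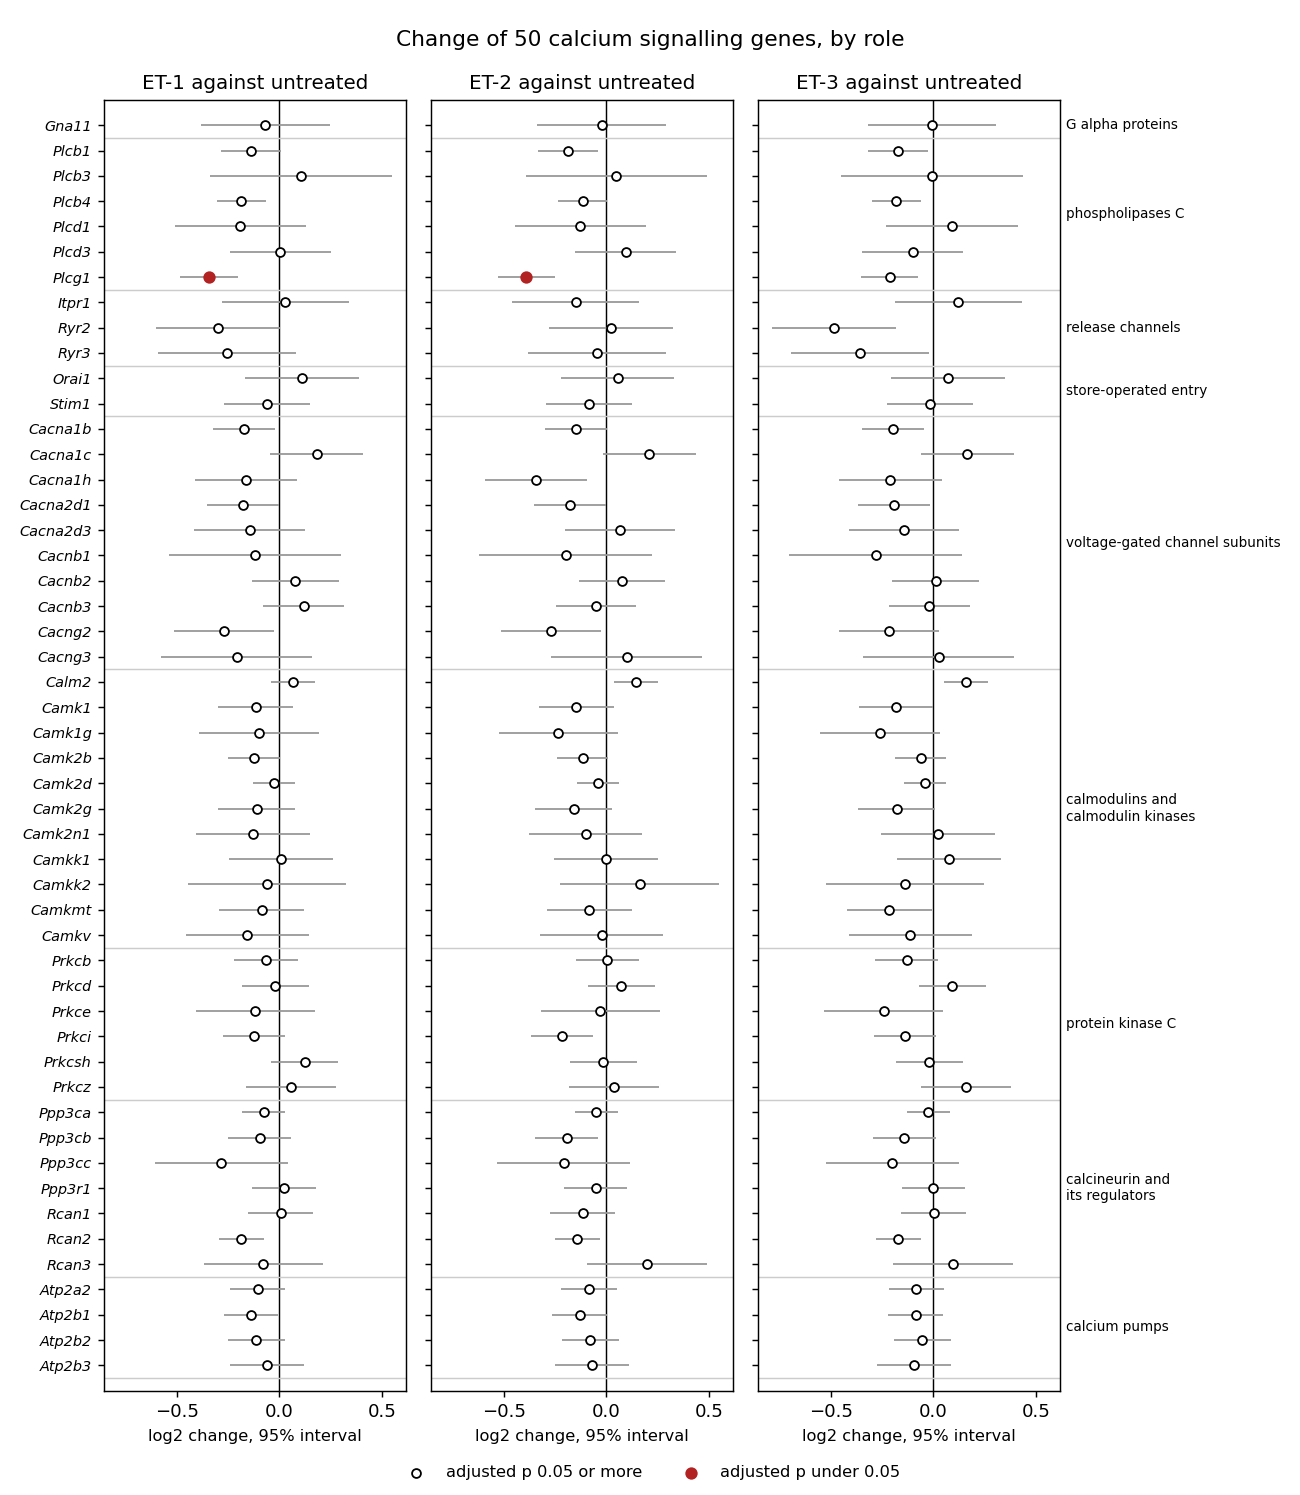
Log2 change (points) with 95% intervals (lines) for the 50 tested genes, grouped by role as symbol prefixes assign it, for ET-1, ET-2 and ET-3 against untreated cultures; filled red points passed an adjusted p under 0.05. The filled points are Plcg1 with ET-1 and ET-2, and most points lie left of 0.

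Across the 50 tested genes, 37 estimates were negative with ET-1, 36 with ET-2 and 37 with ET-3, and 38 in the mean of the 3 peptides. In the mean this is 76% of the genes, against 58.1% of all tested probe sets. The median log2 change was -0.10 with ET-1, -0.07 with ET-2 and -0.09 with ET-3, where the medians over all tested probe sets were -0.03, -0.02 and -0.03. The 3 comparisons share the same untreated arrays, so they are not separate evidence of direction. At the chosen probe set, all 9 within-replicate differences were negative for 6 of 50 genes (Plcg1, Rcan2, Plcb4, Atp2b1, Cacna1b and Cacna2d1), which is 12%, where 8.05% of all tested probe sets did the same. They were all positive for 1 gene (Cacna1c), or 2%, where 5.59% did the same. Another tested probe set of Atp2b1 and another of Cacna1b lay above the untreated partner on some arrays. The number of calls depended on the scaling. With each array centred on its median, 9 genes were lower in the mean of the 3 peptides at an adjusted p under 0.05 (limma), namely Plcg1, Rcan2, Plcb1, Plcb4, Prkci, Cacna1b, Cacna1h, Cacna2d1 and Cacng2. The same centring called 6.87% of all tested probe sets lower and moved their median to -0.09.

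In the fit with the replicate block, the data limit how large an uncalled change could be in the 50 tested genes. The 95% interval lay within 1.5-fold in either direction for 47 of 50 genes with ET-1, 48 with ET-2 and 47 with ET-3, and for all 50 in the mean of the 3 peptides. For all 50 genes it lay within 2-fold in each of the 7 comparisons. These are intervals for single genes, not adjusted for their number. They do not cover the 32 genes under the filter, Gnaq, Itpr2 and Itpr3 among them. Without the block the standard error with ET-1 was 0.58 for Ryr3 and 0.75 for Cacng3, so the bounds do not hold for that fit.

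The 3 peptides, which differ in amino acid sequence, were compared at the same dose and time in 3 pairs, giving 150 gene comparisons. None passed, as 0% of all tested probe sets did in any pair, and the lowest limma adjusted p of a member was 1 for ET-2 against ET-1, 1 for ET-3 against ET-1 and 0.999 for ET-3 against ET-2. At an unadjusted p under 0.05 the counts were 1, 0 and 2 of 50, against 3.7%, 2.24% and 3.76% of all tested probe sets. Ryr2 gave the widest estimate, at -0.51 for ET-3 against ET-2 (95% interval -0.81 to -0.21, unadjusted p = 0.00311, limma adjusted p = 0.999). Plcg1 had a log2 difference of 0.18 for ET-3 against ET-2 (95% interval 0.04 to 0.32, limma adjusted p = 0.999) and -0.05 for ET-2 against ET-1 (95% interval -0.19 to 0.10, limma adjusted p = 1). The call with ET-1 and ET-2 and its absence with ET-3 therefore show no tested difference between the peptides, and these intervals do not show that the peptides act alike.

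The replicate number set most of the variation in these genes. It held a median of 77% of the sum of squares of log2 signal for the 50 tested genes and 68.7% over all tested probe sets, while treatment groups held 10.1% for these genes and 10.4% over all. More variation lay between replicate numbers than between groups for 41 of 50 genes, and for 86.5% of all tested probe sets. Cacng3 was higher in replicate 3, at 418.9 to 483.6 with endothelin and 373 untreated, than in replicates 1 and 2, at 100.8 to 161.4 with endothelin and 112.1 to 165.8 untreated. Ryr3 was lower in replicate 3, at 90.76 to 140.4 with endothelin and 110.8 untreated, than in replicates 1 and 2, at 235.4 to 306.4 with endothelin and 322 to 354.6 untreated. Of the 32 genes under the filter, 28 had their highest level in replicate 3, the number whose 4 arrays also had the highest median signals of all probe sets. The share over all probe sets under the filter is not given here, so the count does not set these genes apart.

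**Figure D3:**
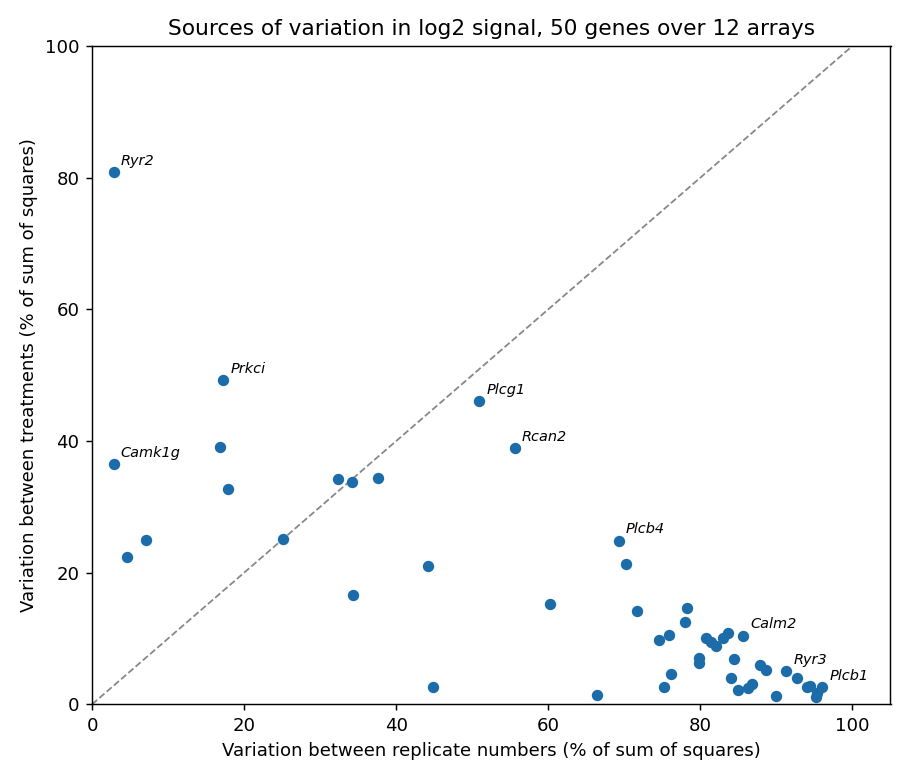
Share of each tested gene's variation in log2 signal (percent of its sum of squares over 12 arrays) between replicate numbers (x axis) and between the 4 treatment groups (y axis); each point is a gene and the dashed line marks equal shares. Most genes lie far right and low, with 41 of 50 below the line, and Ryr2 lies at 80.8% between treatments.

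Genes next to these in the pathway were taken from 6 lists with 101 entries, of which 95 were measured and 75 tested. None changed with ET-1 or ET-2, 2 rose with ET-3 and 4 rose in the mean of the 3 peptides, where 1.51%, 1.28%, 2.13% and 3.54% of all tested probe sets rose in those 4 comparisons. None of the 75 fell. At an unadjusted p under 0.05 (limma), 8 were higher and 8 lower with ET-1, 5 and 8 with ET-2, 5 and 6 with ET-3, and 7 and 11 in the mean. Over all tested probe sets the shares were 7.76% higher and 7.7% lower with ET-1, 7.65% and 8.7% with ET-2, 8.58% and 9.21% with ET-3, and 9.91% and 11.9% in the mean. The 4 were Rgs16, which speeds the return of Gq and Gi to rest, Grk5, a kinase that desensitises receptors, Calr, a calcium-binding chaperone of the endoplasmic reticulum, and Hspa5, another chaperone there.

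Rgs16 measured 960.3, 412.2 and 242.1 with ET-1, 1065, 348 and 280.2 with ET-2 and 1090, 484.5 and 278.9 with ET-3, against 184.2, 143.4 and 238.5 untreated. The endothelin arrays were all above the untreated arrays, widely in replicate 1 and narrowly in replicate 3. Its log2 change was 1.39 ± 0.29 in the mean (limma adjusted p = 0.0162) and 1.52 ± 0.35 with ET-3 (limma adjusted p = 0.0403), and was 0.84 in the mean without replicate 1 (limma adjusted p = 0.164). Grk5 measured 403.2, 244.5 and 239.3 with ET-1, 398, 223.1 and 151.5 with ET-2 and 400.1, 261.4 and 192.1 with ET-3, against 236.3, 173.4 and 160.7 untreated. The ET-2 array of replicate 3 was below its untreated partner, and the change was 0.50 ± 0.13 in the mean (limma adjusted p = 0.0426).

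Calr measured 1570, 1027 and 2854 with ET-1, 1542, 1086 and 2730 with ET-2 and 1753, 1058 and 3047 with ET-3, against 1301, 816.8 and 2694 untreated. Each endothelin array was above its untreated partner, with a log2 change of 0.26 ± 0.06 in the mean (limma adjusted p = 0.0263) and 0.33 ± 0.07 with ET-3 (limma adjusted p = 0.034). Hspa5 measured 8300, 5937 and 5908 with ET-1, 8738, 5992 and 5677 with ET-2 and 8866, 5906 and 5000 with ET-3, against 6786, 4913 and 5121 untreated, and only the ET-3 array of replicate 3 was below its partner (log2 change 0.24 ± 0.05, limma adjusted p = 0.025). The calls in the mean were kept in 11 of 15 fits with arrays left out for Rgs16, 4 for Grk5 and 9 each for Calr and Hspa5. All 4 were lost without replicate 1 or replicate 2, without the untreated array of either, and without the replicate block (limma adjusted p = 1). Grk5 was also lost without any endothelin array of replicates 1 and 2 or ET-1 replicate 3, Calr without ET-3 replicate 1 or ET-1 replicate 2, and Hspa5 without ET-2 replicate 1 or ET-1 replicate 3. Median centring removed the calls of Grk5, Calr and Hspa5 in the mean and of Rgs16 and Calr with ET-3, and quantile normalization those of Grk5 in the mean and Rgs16 with ET-3. The ET-3 calls were kept in 5 of 15 fits for Rgs16 and 4 for Calr.

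**Figure D4:**
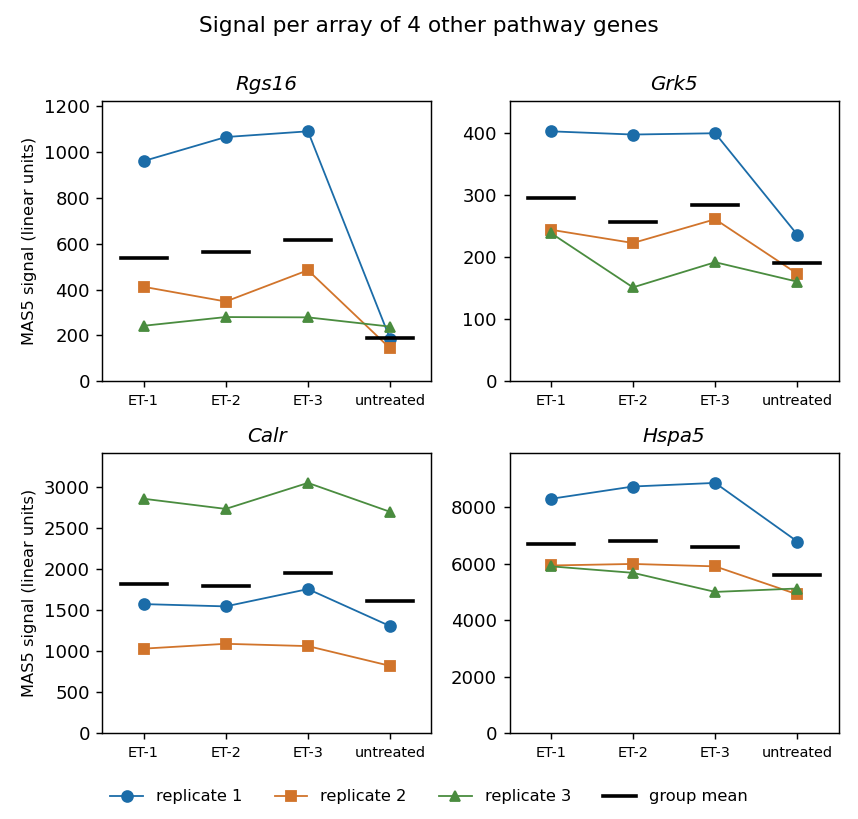
MAS5 signal (linear units) on each array for the 4 other pathway genes that rose in the mean of the 3 endothelins; coloured lines join the arrays of 1 replicate number and black bars are group means. Rgs16 reaches 960.3 to 1090 on the endothelin arrays of replicate 1, against 184.2 on the untreated array of that number.

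In the remaining lists no gene passed. The nearest in IP3 turnover was Inpp5j, a phosphoinositide 5-phosphatase (-0.33 ± 0.10, limma adjusted p = 0.0669), followed by Inpp1 (-0.15 ± 0.06, limma adjusted p = 0.155). Among diacylglycerol effectors, Rasgrp2, a Rap activator, had 0.23 ± 0.10 (limma adjusted p = 0.203) and Dgke, a diacylglycerol kinase, -0.19 ± 0.09 (limma adjusted p = 0.25). Among store-operated and TRPC channels, Orai2 had -0.08 ± 0.07 and Trpc1 -0.07 ± 0.08 (limma adjusted p = 0.543 and 0.656). Among regulators of calcium-dependent transcription, Cabin1, which inhibits calcineurin, had 0.20 ± 0.07 and Gsk3b, a kinase that returns NFAT to the cytoplasm, -0.20 ± 0.08 (limma adjusted p = 0.133 and 0.151).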

How the data were processed

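RNA of 12 arrays (Affymetrix Rat Genome 230 2.0) was measured in 4 groups of 3. The authors deposited 1 intensity per probe set and array, made with MAS5 per the submitters' processing notes (version not given in the sources used here). Means trimmed at both ends were 496.7 to 498.3, so the deposited intensities appear scaled to a common mean, while array medians ran from 136 to 181. Of 31042 probe sets, 20826 had 1 symbol in the platform annotation, 436 several and 9780 none listed, and only the first were named. All 82 genes matched RefSeq by Entrez ID, and 66 were in the table of RefSeq promoter windows. Detection calls were not used here.

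Signals were taken as log2 without a pseudocount or further normalization. Tests used limma 3.58.1, run in R 4.3.3 (lmFit fitted a mean for each of the 4 groups, with the replicate number as a block, eBayes with an intensity trend, 6 residual degrees of freedom, two-sided p-values, Benjamini-Hochberg adjustment over 15521 probe sets per comparison). The fit was tested on simulated data. The replicate numbers were taken to pair the arrays, since deviations from the group means correlated at 0.684 to 0.912 in all 18 pairs of the same number and at -0.706 to -0.056 in 36 pairs of different numbers. This pairing comes from the values, because the labels do not say what a number stands for. If the replicates did not come from separate preparations, the p-values measure only technical spread. The number of arrays sets the precision.

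Most named genes were those called, the 3 with the smallest unadjusted p in the mean in each of 9 roles, fixed pathway genes, and, for each neighbouring list, those called or else the 2 with the smallest p. Further members, among them Cacna1c, Cacng3, Prkca, Plcd1, Plcd3, Camk2n1 and Prkcsh, were named outside these rules. The members and lists were chosen with earlier results of these data known. Alternatives left out the block, the filter, the trend, the other groups or each array and replicate number, added 16 to each signal, or centred or quantile normalized the arrays. Figures were drawn with matplotlib 3.10.9.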

Additional observations from a re-analysis of the deposited data

How the results depend on the processing

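The replicate block decided the calls. Without the replicate block 0 of 50 genes were called in each of the 7 comparisons, as were 0 of all 15521 probe sets (limma), with 237 (ET-1), 223 (ET-2), 297 (ET-3) and 397 (mean of the 3 endothelins) probe sets at an unadjusted p under 0.05. Fitting only the groups of the comparison gave 0 calls for ET-1 and 0 for ET-2, and fitting no intensity trend gave 0 for ET-1 and 1 for the mean. The mean also had 1 call with no filter on dim probe sets and 1 with quantile normalization. With arrays or replicate numbers left out, the calls ran from 0 to 1 for ET-1 (0 in 8 of 15 fits), 0 to 1 for ET-2 (0 in 6 of 15) and 0 to 3 for the mean, and were 0 for ET-3 and for the pairs of peptides. The median log2 change of the 50 genes then ran from -0.127 to -0.053 for ET-1, -0.096 to -0.048 for ET-2, -0.111 to -0.059 for ET-3 and -0.092 to -0.039 for the mean, the value nearest 0 coming without ET-1 replicate 3 for ET-1 and without replicate 1 or its untreated array for the mean.

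Median centring shifted the median of all tested probe sets to -0.05 (ET-1), -0.12 (ET-2), -0.08 (ET-3) and -0.09 (mean), and that of the 50 genes to -0.128, -0.171, -0.14 and -0.132. Since it takes 1 constant from each array, it moves every gene alike. It gave 9 calls for ET-2, 1 for ET-3 (Rcan2) and 9 for the mean, all lower. Over all probe sets its split was 150 higher and 33 lower for ET-1, 193 and 1025 for ET-2, 228 and 218 for ET-3, and 426 and 1066 for the mean, against 234 and 34, 199 and 50, 331 and 79, and 549 and 209 as deposited. The cause was not tested. The comparison of the mean was not refitted with fewer groups, since it uses all 4.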
